A study of Mus musculus with 12 samples.

Results

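Kidneys of MRL/lpr mice were compared with kidneys of C57BL/6 mice at 17 weeks of age by RNA sequencing. The comparison rests on 3 libraries of each strain, 6 of the 12 libraries of the series, and the other 6 libraries hold the same strains at 8 weeks. The MRL/lpr group has the genotype MRL/MpJ-Fas<lpr>/J, whose lpr allele disrupts the death receptor gene Fas, and the control group has the genotype C57BL/6, with no treatment named for either. Ages are written 8W and 17W in the labels, and W was read as weeks. MRL mice without lpr are not among the samples, so the lpr allele, the disease and the rest of the MRL background cannot be told apart. The labels name neither the sex of the mice nor whether the libraries of a group are separate animals, so p-values measure only the spread between these libraries. Levels are FPKM (sequenced fragments scaled to mRNA length and to library size) summed over the mRNAs of each gene. Y-linked Ddx3y, Kdm5d and Usp9y read at most 0.02 FPKM in the 6 libraries at 17 weeks. Uty was at most 0.24 FPKM and Eif2s3y at most 0.49 FPKM. The sex of the mice was not tested.

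MRL/lpr mice develop a lupus-like disease in which autoantibodies and immune complexes lodge in the glomeruli while T cells and macrophages enter the tissue around the tubules. Interferon gamma, made mainly by T and NK cells, switches on large guanylate-binding proteins, immunity-related GTPases, antigen presentation genes and the T cell attractant Cxcl9. Tubular cells under injury make proteins such as Havcr1 (KIM-1) and Lcn2 (NGAL), and the endothelium of the glomerular and peritubular capillaries is another target of lupus nephritis. In whole-kidney RNA, fewer cells of a type and less RNA per cell cannot be told apart.

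Replicate 2 of C57BL/6 at 17 weeks stood apart from its partners, and list counts and the differences of called genes are therefore given with it and without it. In a principal component analysis of the 6 libraries, the first component (54.1% of the variance) separated the strains. The next one (34.6%) placed this library at 44.5 and the other 5 between -18.5 and 0.34. The marker genes behind this are spread over several cell types. It was above both partners in 23 of 24 macrophage and monocyte markers, 23 of 25 tubular injury markers, 22 of 25 endothelial markers and 26 of 26 fibroblast and matrix genes, and in 3 of 36 proximal tubule genes. The summed level of the injury markers was 6770 FPKM in this library and 2030 and 1980 FPKM in its partners. Kidney identity was not in doubt in any library, since Umod of the thick ascending limb lay between 2055 and 2531 FPKM and Aqp1 of the proximal tubule between 363 and 502 FPKM.

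Fas (gene ID 14102, chromosome 19, 34290647 to 34327775, GRCm38.p6), the gene that lpr disrupts, was measured at 6.23, 9.95 and 5.88 FPKM in C57BL/6 replicates 1 to 3 and at 6.87, 5.81 and 7.73 FPKM in MRL/lpr replicates 1 to 3. The groups overlapped, with a log2 difference of -0.07 ± 0.16 (SE, adjusted p = 0.815) and 0.14 ± 0.11 without replicate 2 (adjusted p = 0.372). The lpr insertion lies in an intron, and a level for the whole gene does not separate the parts before and after it, so Fas does not check the labels. Nnt (gene ID 18115, chromosome 13, 119335527 to 119409257), an inner-membrane enzyme that makes mitochondrial NADPH and of which C57BL/6J mice lack several exons, differed by strain. Its levels were 52.4, 36.5 and 51.95 FPKM in C57BL/6 and 97.3, 102 and 114 FPKM in MRL/lpr. All 3 MRL/lpr libraries lay above all 3 controls, and the log2 difference was 1.15 ± 0.14 (adjusted p = 0.000288), or 0.99 ± 0.10 without replicate 2 (adjusted p = 5.8e-05).

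Of 12736 genes that reached 1 FPKM in at least 3 of the 6 libraries, 981 were higher (7.7%) and 948 lower (7.44%) in MRL/lpr at an adjusted p under 0.05. Without replicate 2, 2268 were higher (17.8%) and 1221 lower (9.59%). Of these, 931 higher and 856 lower genes were called in both fits, 1337 higher and 365 lower genes only without replicate 2, 142 only with it, and 0 in opposite directions. Higher genes made up 65.0% of the calls without replicate 2, and 52.1% when the libraries were scaled by the median of ratios (1829 higher and 1680 lower), a scaling that moved the median log2 difference of all genes from 0.045 to 0.002. The groups did not overlap in 14.1% of genes with MRL/lpr higher and in 16% with MRL/lpr lower. These shares are the background against which each list of genes is read. No share over all genes was taken for other orders of the libraries, such as replicate 2 above its partners. Counts of such orders describe the lists only. At least a 2-fold difference was reached by 216 of the higher and 127 of the lower genes with all libraries and by 412 and 136 without replicate 2.

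The promoters of interferon gamma-induced genes are shown first, because 21 of 25 such genes were higher in MRL/lpr once replicate 2 was left out and many of their starts hold the same short motifs. The sequences are the 250 bases before the gene start of RefSeq on GRCm38.p6, 5′ to 3′ on the strand of the gene. Capitals mark a gamma-activated site, TTCNNNGAA, or an interferon-stimulated response element, GAAA, any 2 bases and GAAA. Both were searched on both strands, so that the element can also read as TTTC, any 2 bases and TTTC, and the matches shown do not overlap.
Gbp2 (chr3:142620413-142620662, + strand): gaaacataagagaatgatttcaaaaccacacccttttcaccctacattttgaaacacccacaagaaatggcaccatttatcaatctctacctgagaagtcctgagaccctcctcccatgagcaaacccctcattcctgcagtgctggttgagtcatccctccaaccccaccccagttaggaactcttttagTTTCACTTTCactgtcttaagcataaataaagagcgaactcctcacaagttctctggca
Igtp (chr11:58199306-58199555, + strand): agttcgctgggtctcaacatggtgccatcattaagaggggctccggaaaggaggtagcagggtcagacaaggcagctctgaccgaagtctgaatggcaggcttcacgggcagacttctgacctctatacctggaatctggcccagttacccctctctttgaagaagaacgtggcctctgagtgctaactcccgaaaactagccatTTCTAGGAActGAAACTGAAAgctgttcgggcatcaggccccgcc
Tgtp1 (chr11:48992247-48992496, - strand): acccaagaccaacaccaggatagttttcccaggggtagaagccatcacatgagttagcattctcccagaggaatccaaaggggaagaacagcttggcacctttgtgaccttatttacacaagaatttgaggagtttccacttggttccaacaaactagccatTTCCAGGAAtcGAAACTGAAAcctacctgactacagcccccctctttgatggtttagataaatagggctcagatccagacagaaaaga
Rsad2 (chr12:26456453-26456702, - strand): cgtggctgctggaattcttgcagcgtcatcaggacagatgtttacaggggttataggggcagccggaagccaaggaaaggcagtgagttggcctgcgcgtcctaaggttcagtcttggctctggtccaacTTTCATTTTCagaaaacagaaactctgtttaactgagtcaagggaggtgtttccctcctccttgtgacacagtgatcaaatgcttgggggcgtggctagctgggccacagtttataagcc
Igtp and Tgtp1, which encode immunity-related GTPases, carry a gamma-activated site and then, 2 bases on, the same GAAACTGAAA. Gbp2 holds 1 response element, and so does Rsad2, a type I interferon-stimulated antiviral gene that was lower in MRL/lpr. Of the list of interferon gamma-induced GTPases and partners, 17 tested genes had a RefSeq window, of which 9 held the gamma-activated site (52.9%) and 11 the response element (64.7%). Among all 10175 tested genes with a window the shares were 7.35% and 3.24%. Of 23 type I interferon-stimulated genes, 17.4% held the first motif and 39.1% the other. Among the 1772 genes higher without replicate 2 that had a window, the shares were 8.07% and 4.18%, near those of all genes. They were 5.88% and 17.6% in the MHC class I list, and 6.25% for each motif in the macrophage list. A match describes these letters only, and the window of Cxcl9 held neither.

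Interferon gamma-induced GTPases and their partners were the immune list with the most members higher in MRL/lpr. Of 25 tested members, 11 were higher and 0 lower, and 21 were higher without replicate 2, against 7.7% and 17.8% of all genes. The median log2 difference of the list was 1.26, and 1.66 without replicate 2, against 0.00 and 0.04 over all genes. The 3 MRL/lpr libraries lay above C57BL/6 replicates 1 and 3 in 24 of 25 members. They lay above all 3 controls in 13, against 14.1% of all genes. With any other single library left out, between 3 and 15 members were called, the lowest count without C57BL/6 replicate 3, MRL/lpr replicate 1 or MRL/lpr replicate 3. With replicate 2 and another library left out, the count ran from 4 to 24, and it was 7 without C57BL/6 replicate 1 and 4 without C57BL/6 replicate 3.

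Gbp2 (chromosome 3, 142620663 to 142638008), a guanylate-binding protein that attacks the vacuoles of intracellular pathogens, stood at 6.77, 23.6 and 6.09 FPKM in the C57BL/6 libraries and 97.8, 45.5 and 94.7 FPKM in the MRL/lpr libraries. Its log2 difference of 2.78 ± 0.57 (adjusted p = 0.00856) became 3.36 ± 0.53 without replicate 2 (adjusted p = 0.00169), and the call was kept with each other library left out. Igtp (chromosome 11, 58199556 to 58207592) read 9.70, 25.5 and 8.02 FPKM in C57BL/6 and 115, 59.8 and 157 FPKM in MRL/lpr. Even the lowest MRL/lpr library was above the highest control. The log2 difference of Igtp was 2.92 ± 0.64 (adjusted p = 0.0124) and 3.40 ± 0.68 without replicate 2 (adjusted p = 0.00563), and this last call was lost when C57BL/6 replicate 3 was also left out (adjusted p = 0.0599). Cxcl9 (chromosome 5, 92321331 to 92328079), the chemokine that draws activated T cells through Cxcr3, had 1.73, 3.21 and 1.10 FPKM in C57BL/6 and 17.2, 8.03 and 14.3 FPKM in MRL/lpr. It was higher by 2.23 ± 0.29 on the log2 scale (adjusted p = 0.000553) and by 2.51 ± 0.27 without replicate 2 (adjusted p = 0.000157), in every fit with a further library left out.

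In Tgtp1, Iigp1 and Gbp6 too, C57BL/6 replicates 1 and 3 were lowest and replicate 2 lay between them and the MRL/lpr libraries. Tgtp1 read 4.22, 19.6 and 3.23 FPKM in C57BL/6 and 81.4, 36.9 and 108 FPKM in MRL/lpr, a log2 difference of 3.18 ± 0.80 (adjusted p = 0.0236) and 3.89 ± 0.79 without replicate 2 (adjusted p = 0.00633). The calls on these 3 genes were lost without C57BL/6 replicate 1 or 3 and without MRL/lpr replicate 1 or 3, with adjusted p up to 0.0792 for Tgtp1, 0.0962 for Iigp1 and 0.0958 for Gbp6. With replicate 2 out they were lost without C57BL/6 replicate 1 or 3 (adjusted p up to 0.0649, 0.0918 and 0.109). Replicate 2 of MRL/lpr was the lowest of its group in all 25 members of the list. Serpina3g, a protease inhibitor of activated T cells and macrophages, showed how replicate 2 of C57BL/6 can decide a call: it read 2.38, 34.6 and 2.29 FPKM in C57BL/6 and 27.1, 20.4 and 26.4 FPKM in MRL/lpr. Its log2 difference was 1.79 ± 0.78 (adjusted p = 0.154) with replicate 2 and 2.93 ± 0.39 without it (adjusted p = 0.000649). Gbp3 lay within its spread in both fits, at 0.12 ± 0.40 and 0.34 ± 0.45 on the log2 scale. Ifng itself was below the filter, with 0.00, 0.24 and 0.10 FPKM in C57BL/6 and 0.38, 0.05 and 0.72 FPKM in MRL/lpr.

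**Figure D1:**
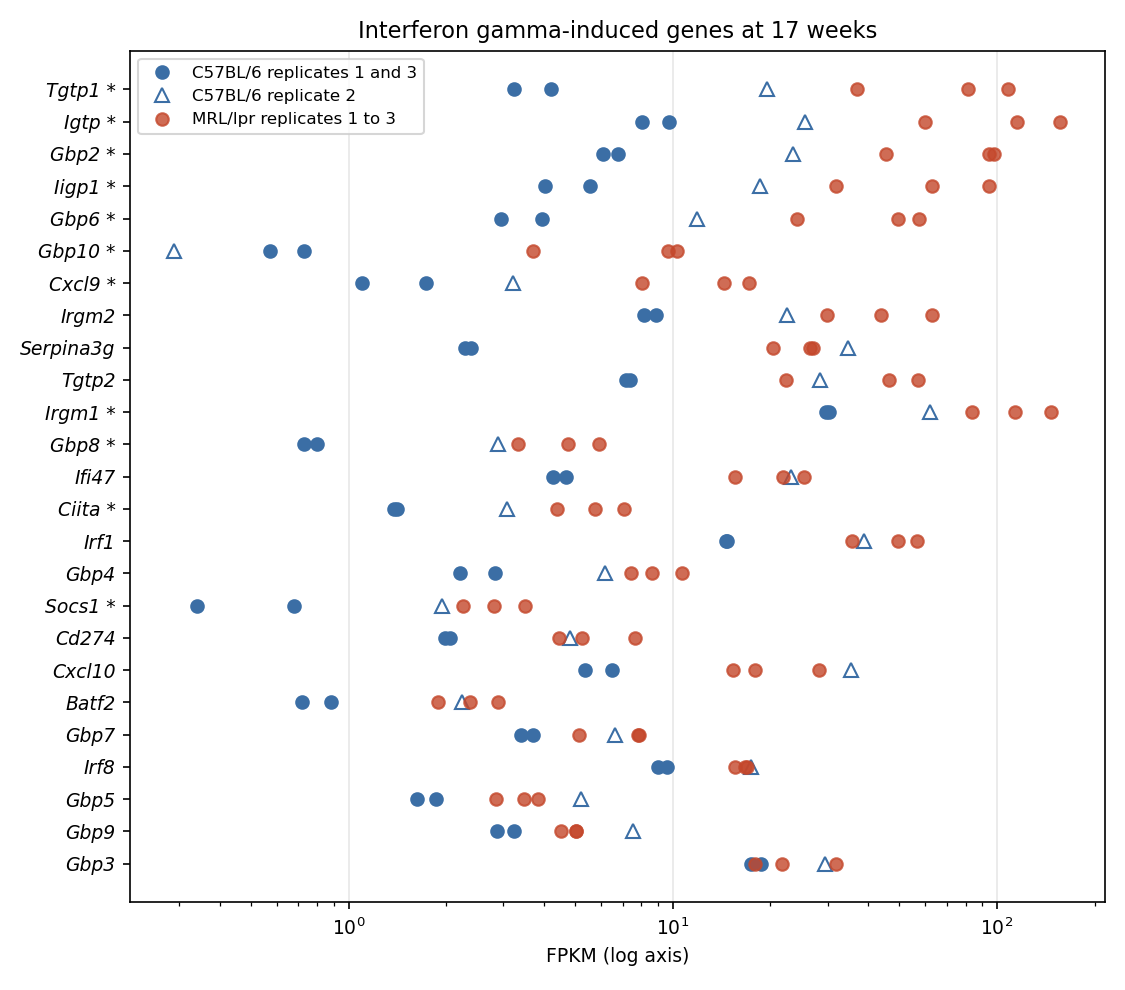
FPKM (log axis) of the 25 tested interferon gamma-induced genes in the 6 kidney libraries at 17 weeks, 1 point per library; an asterisk marks the 11 genes past the threshold with all libraries. In 24 of 25 genes the MRL/lpr points lie to the right of C57BL/6 replicates 1 and 3, and the open triangle of C57BL/6 replicate 2 often falls between the groups.

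Among type I interferon-stimulated genes the library left out decided most calls. Of 34 tested members 0 were higher and 1 lower with all libraries, against 7.7% and 7.44% of all genes. Without replicate 2, 6 were higher and 1 lower, against 17.8% and 9.59% of all genes. The list had a median log2 difference of -0.12 with replicate 2 and 0.47 without it. Replicate 2 of C57BL/6 was above both partners in 34 of 34 members and above all 3 MRL/lpr libraries in 31. The MRL/lpr libraries were above the other 2 controls in 24, and 32 log2 differences were positive without replicate 2. With replicate 2 and a further library left out, at most 18 members were higher. The lower gene was Rsad2 (viperin), an inhibitor of viral replication, with 9.01, 12.9 and 10.1 FPKM in C57BL/6 and 4.69, 5.51 and 5.12 FPKM in MRL/lpr. Its log2 difference was -0.92 ± 0.19 (adjusted p = 0.00956) and -0.79 ± 0.20 without replicate 2 (adjusted p = 0.0168). That last call was lost when C57BL/6 replicate 1 or 3 or MRL/lpr replicate 1 was also left out (adjusted p up to 0.115). The count of higher genes without replicate 2 fell to 0 when C57BL/6 replicate 1 or 3 was left out as well, and to 3 with MRL/lpr replicate 1 or 3.

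Genes that present antigen to CD8 T cells were higher in MRL/lpr or were not called. Of 23 tested members of the MHC class I and peptide loading list, 6 were higher and 0 lower, and 16 were higher without replicate 2, with medians of 0.94 and 1.46. Higher genes made up 7.7% and 17.8% of all genes in these fits. The 16 became 5 without C57BL/6 replicate 1, 6 without C57BL/6 replicate 3 and 9 without MRL/lpr replicate 1, and the 6 became 3 without C57BL/6 replicate 3 or MRL/lpr replicate 1. H2-Q1 (chromosome 17, 35320525 to 35328142), a nonclassical class I gene, read 0.44, 1.84 and 0.45 FPKM in C57BL/6 and 20.2, 13.7 and 18.3 FPKM in MRL/lpr, a log2 difference of 3.33 ± 0.62 (adjusted p = 0.00489) and 3.65 ± 0.69 without replicate 2 (adjusted p = 0.00438). H2-Q2 was at 1.64, 2.82 and 1.42 FPKM in C57BL/6 and 15.5, 10.7 and 14.1 FPKM in MRL/lpr, higher by 2.30 ± 0.40 (adjusted p = 0.00331) and by 2.50 ± 0.45 without replicate 2 (adjusted p = 0.00319). Both calls were kept with each library left out. The classical chains H2-K1 and H2-D1 were not called in either fit, with log2 differences of 1.20 ± 0.62 (adjusted p = 0.229) and 0.13 ± 0.56 (adjusted p = 0.912), and 1.76 ± 0.61 (adjusted p = 0.0597) and 0.66 ± 0.54 (adjusted p = 0.393) without replicate 2. MRL and C57BL/6 mice carry different H2 haplotypes and the reference genome is that of C57BL/6J, so allele sequence and expression cannot be told apart at these genes.

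B2m, the shared light chain of class I, is not part of the H2 complex and read 376, 1357 and 362 FPKM in C57BL/6 and 1770, 1057 and 1721 FPKM in MRL/lpr. It was higher by 1.37 ± 0.58 (adjusted p = 0.143) with replicate 2 and by 2.00 ± 0.51 without it (adjusted p = 0.0175), a call that was lost when C57BL/6 replicate 1 or 3 or MRL/lpr replicate 1 was also left out (adjusted p up to 0.114). The immunoproteasome, which trims peptides for class I, had 1 of 6 members higher, and 5 of 6 without replicate 2, which fell to 1 without C57BL/6 replicate 1 or 3. Among all genes 7.7% were higher, and 17.8% without replicate 2. With all other libraries kept, leaving out any 1 of the other 5 at 17 weeks brought the immunoproteasome count of 1 to 0. Its activator subunit Psme1 was at 67.9, 126 and 70.2 FPKM in C57BL/6 and 145, 126 and 146 FPKM in MRL/lpr, with a log2 difference of 1.0 ± 0.16 without replicate 2 (adjusted p = 0.00183, at most 0.0209 with a further library left out) and 0.71 ± 0.23 with it (adjusted p = 0.0623). Pomp, the chaperone that assembles the proteasome, did not differ beyond its spread, with a log2 difference of 0.05 ± 0.07.

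MHC class II genes present antigen to CD4 T cells. Of 14 tested members 2 were higher and 1 lower, against 7.7% and 7.44% of all genes. Without replicate 2, 7 were higher and 1 lower, against 17.8% and 9.59% of all genes. The 7 became 4 without C57BL/6 replicate 1 and 3 without C57BL/6 replicate 3, and the 2 became 0 without C57BL/6 replicate 1 or 3 or MRL/lpr replicate 1 or 3, and 1 without MRL/lpr replicate 2. Ctss, the protease that degrades the invariant chain, read 24.1, 154 and 24.3 FPKM in C57BL/6 and 93.2, 90.8 and 99.1 FPKM in MRL/lpr. It was higher without replicate 2 by 1.92 ± 0.33 (adjusted p = 0.0028, at most 0.0328 with a further library left out), and its log2 difference with replicate 2 was 1.04 ± 0.61 (adjusted p = 0.291). The class II chains H2-Aa, H2-Ab1 and H2-Eb1 were not called in either fit, with log2 differences of 0.70 ± 0.64, 0.57 ± 0.67 and 0.32 ± 0.55, or 1.40 ± 0.56, 1.22 ± 0.64 and 1.01 ± 0.41 without replicate 2. In each of them C57BL/6 replicate 2 was above every MRL/lpr library.

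T cell genes were higher in MRL/lpr. Of 17 tested T cell markers 5 were higher with all libraries and 17 of 17 without replicate 2, where between 13 and 17 stayed called with a further library left out. The 5 became 2 without C57BL/6 replicate 1 or 3 or MRL/lpr replicate 1 or 3. Among all genes 7.7% were higher, and 17.8% without replicate 2. Cd8a (chromosome 6, 71373427 to 71379171), which assists the T cell receptor of killer cells, was at 0.84, 1.65 and 0.83 FPKM in C57BL/6 and 14.9, 12.96 and 15.1 FPKM in MRL/lpr. Its log2 difference was 2.88 ± 0.14 (adjusted p = 2.9e-07) and 3.06 ± 0.10 without replicate 2 (adjusted p = 1.18e-08). Cd4, the coreceptor of helper T cells, read 1.02, 5.50 and 1.19 FPKM in C57BL/6 and 7.69, 5.79 and 6.85 FPKM in MRL/lpr, higher by 1.34 ± 0.39 (adjusted p = 0.0442) and by 1.88 ± 0.23 without replicate 2 (adjusted p = 0.000253). The call on Cd4 with all libraries was kept in 2 of 12 fits that leave out 1 library (adjusted p up to 0.132), while the call without replicate 2 was kept in 11 of 11. Replicate 2 of MRL/lpr was the lowest of its group in 17 of 17 T cell markers, the same library that was lowest in the interferon gamma-induced genes.

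Receptors that mark activated or restrained T cells were also higher, 4 of 9 with all libraries and 8 of 9 without replicate 2. Higher genes made up 7.7% and 17.8% of all genes in these fits. The 4 became 2 without C57BL/6 replicate 1 or 3 or MRL/lpr replicate 3, and the 8 became 5 without C57BL/6 replicate 3. Slamf6 (chromosome 1, 171917458 to 171948958), a costimulatory receptor of T and B cells, was at 0.25, 1.01 and 0.08 FPKM in C57BL/6 and 2.54, 1.63 and 2.22 FPKM in MRL/lpr, a log2 difference of 1.16 ± 0.21 (adjusted p = 0.0037) and 1.42 ± 0.13 without replicate 2 (adjusted p = 3.55e-05). Pdcd1 (PD-1; chromosome 1, 94038305 to 94052553), an inhibitory receptor, was at 0.27, 0.57 and 0.24 FPKM in C57BL/6 and 1.83, 1.40 and 1.49 FPKM in MRL/lpr, higher by 0.92 ± 0.18 (adjusted p = 0.00571) and by 1.03 ± 0.18 without replicate 2 (adjusted p = 0.00193). For both genes the groups did not overlap and the calls were kept with each library left out. Lag3 and Tigit, 2 other inhibitory receptors, were higher by 1.03 ± 0.24 (adjusted p = 0.0153) and 0.89 ± 0.22 (adjusted p = 0.0208), and by 1.28 ± 0.20 (adjusted p = 0.000991) and 1.06 ± 0.21 (adjusted p = 0.00424) without replicate 2. Their calls were lost without C57BL/6 replicate 1 or 3 or MRL/lpr replicate 3, and for Tigit also without MRL/lpr replicate 1 (adjusted p up to 0.0584 and 0.0746), and kept in 11 of 11 fits once replicate 2 was out. Slamf7, by contrast, was at 1.26, 3.42 and 1.16 FPKM in C57BL/6 and 1.53, 1.46 and 1.13 FPKM in MRL/lpr and was not called in either fit.

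Of 5 tested NK and cytotoxic genes 1 was higher, and 4 without replicate 2, or 2 when C57BL/6 replicate 3 was also left out. Among all genes 7.7% were higher, and 17.8% without replicate 2. Nkg7, a granule protein of killer cells, read 2.07, 4.16 and 1.04 FPKM in C57BL/6 and 7.20, 7.78 and 10.8 FPKM in MRL/lpr. Its log2 difference was 1.57 ± 0.38 (adjusted p = 0.0199) and 1.92 ± 0.37 without replicate 2 (adjusted p = 0.00473). The call with all libraries was lost without C57BL/6 replicate 1 or 3 or MRL/lpr replicate 2 or 3 (adjusted p up to 0.0677). Without replicate 2 the call on Nkg7 was lost only when C57BL/6 replicate 3 was also left out (adjusted p = 0.0561). The T cell chemokine Ccl5 was at 5.15, 20.2 and 5.88 FPKM in C57BL/6 and 27.9, 21.9 and 31.8 FPKM in MRL/lpr. It was higher by 2.10 ± 0.36 without replicate 2 (adjusted p = 0.00257) and by 1.53 ± 0.46 with it (adjusted p = 0.0502).

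B cell and plasma cell genes split the MRL/lpr libraries. Over all genes, 7.7% were higher, and 17.8% without replicate 2. Of 6 tested B cell markers 1 was higher, which became 0 without C57BL/6 replicate 1 or 3 or MRL/lpr replicate 1 or 2 and 3 without MRL/lpr replicate 3. Without replicate 2 the count was 5, which became 2 without C57BL/6 replicate 1 and 3 without C57BL/6 replicate 3. Of 9 plasma cell genes 0 were higher, and 2 without replicate 2, which became 0 without C57BL/6 replicate 1 or 3 or MRL/lpr replicate 1 or 2. Jchain, which joins secreted IgA and IgM, was at 32, 98.2 and 27.1 FPKM in C57BL/6 and 195, 241 and 11.2 FPKM in MRL/lpr replicates 1 to 3. Cd79a, part of the B cell receptor, was at 1.31, 3.81 and 1.91 FPKM in C57BL/6 and 7.81, 6.97 and 1.65 FPKM in MRL/lpr. In both genes MRL/lpr replicate 3 lay among or below the controls while the other MRL/lpr libraries lay above them, and neither gene was called (adjusted p = 0.617 for Jchain and 0.254 for Cd79a). Replicate 3 was the lowest MRL/lpr library in 9 of 9 plasma cell genes and 5 of 6 B cell markers. Without it 4 plasma cell genes were higher, and 9 of 9 once C57BL/6 replicate 2 was left out as well. Cd22, an inhibitory receptor of B cells, was higher in MRL/lpr without replicate 2 by 1.03 ± 0.16 (adjusted p = 0.000917, at most 0.0126 with a further library left out), and by 0.75 ± 0.22 with it (adjusted p = 0.0469), a call kept in 2 of 12 fits that leave out 1 library.

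**Figure D2:**
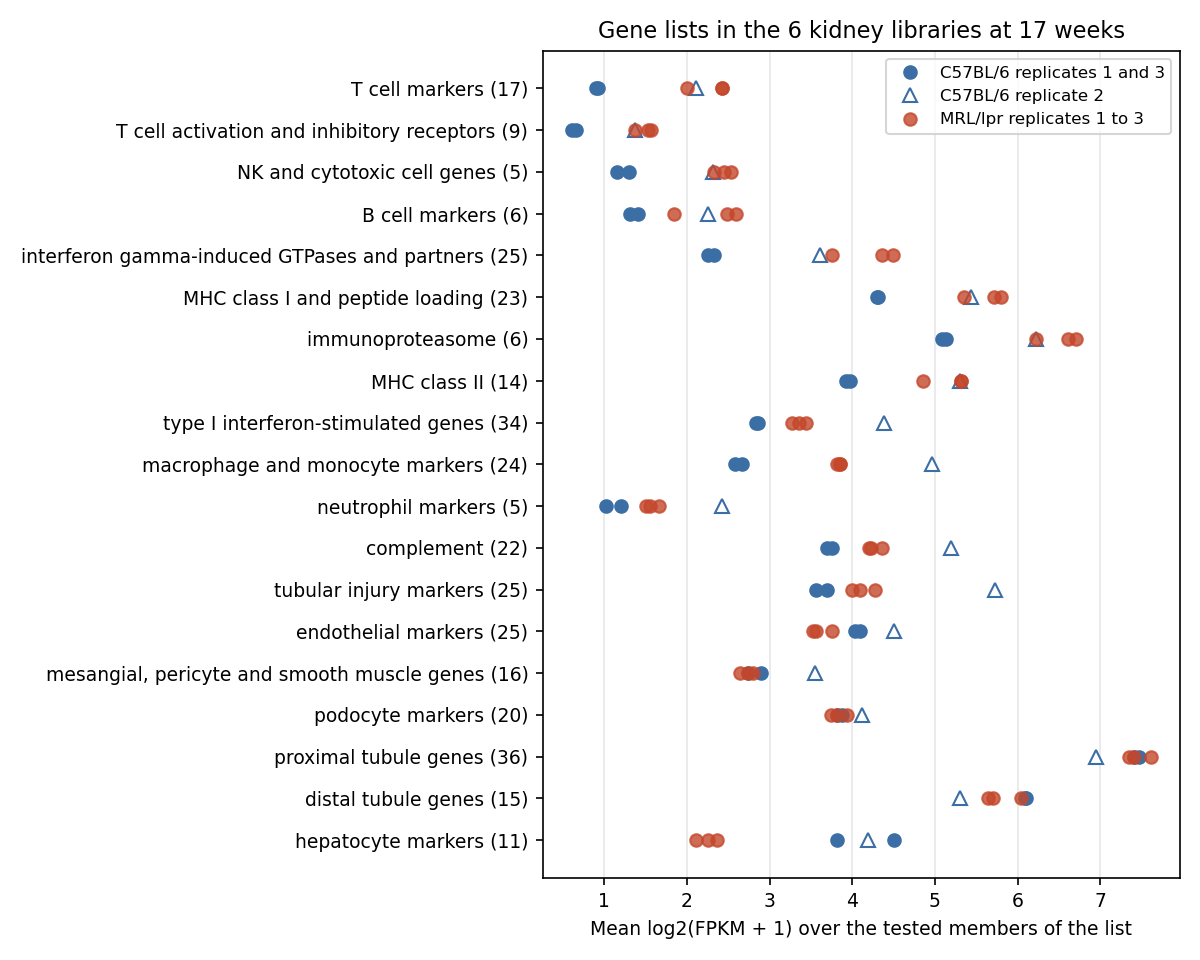
Mean log2(FPKM + 1) over the tested members of 19 gene lists (number of members in brackets) in each of the 6 kidney libraries at 17 weeks, 1 point per library. The MRL/lpr points lie above C57BL/6 replicates 1 and 3 in the T, NK and B cell, interferon and antigen presentation lists. They also do so in the macrophage, neutrophil, complement and tubular injury lists, and lie below them in the endothelial, distal tubule and hepatocyte lists. The open triangle of C57BL/6 replicate 2 lies highest in the type I interferon, macrophage, neutrophil, complement, tubular injury, endothelial, smooth muscle and podocyte lists.

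Calls on macrophage genes depended on the control library. With all libraries 0 of 24 tested markers were called, and 17 of 24 were higher without replicate 2, against 17.8% of all genes. The median went from 0.38 to 1.26. The 17 became 9 when C57BL/6 replicate 3 was also left out. Replicate 2 of C57BL/6 was above all 3 MRL/lpr libraries in 22 of 24 markers, while the MRL/lpr libraries were above the other 2 controls in 20. Lyz2, the lysozyme of myeloid cells, was at 47.3, 786 and 55.8 FPKM in C57BL/6 and 303, 266 and 232 FPKM in MRL/lpr, a log2 difference of 1.04 ± 0.84 (adjusted p = 0.453) and 2.35 ± 0.26 without replicate 2 (adjusted p = 0.000224). Trem2 (chromosome 17, 48346401 to 48352276), a lipid receptor of tissue macrophages, was at 0.43, 6.29 and 0.33 FPKM in C57BL/6 and 4.81, 4.92 and 4.02 FPKM in MRL/lpr, higher by 2.01 ± 0.15 without replicate 2 (adjusted p = 6.93e-06) and by 1.21 ± 0.51 with it (adjusted p = 0.145). Aif1 (IBA1), a marker of activated macrophages, was higher without replicate 2 by 2.19 ± 0.21 (adjusted p = 5.79e-05), against 1.31 ± 0.58 with it (adjusted p = 0.161). The calls on Lyz2, Trem2 and Aif1 without replicate 2 were kept in 11 of 11 fits. Csf1r, Cx3cr1, Ccr2 and Mertk, which are markers of resident or recruited macrophages, were not called in either fit, with log2 differences without replicate 2 between 0.00 and 0.35.

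Few neutrophil genes were measured. Of 5 tested members 0 were called with all libraries, against 15.1% of all genes. Without replicate 2, 1 was higher, against 17.8% of all genes. It was the receptor gene Csf3r, with a log2 difference of 1.01 ± 0.14 without replicate 2 (adjusted p = 0.000562) and 0.36 ± 0.42 with it (adjusted p = 0.627). S100a8 read 1.65, 9.93 and 0.17 FPKM in C57BL/6 and 1.75, 2.36 and 2.13 FPKM in MRL/lpr.

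Among the chemokine ligands, 2 of 21 were higher and 1 lower, against 7.7% and 7.44% of all genes. Without replicate 2, 14 were higher and 2 lower, against 17.8% and 9.59% of all genes. The 2 higher became 1 when any 1 of the other 5 libraries at 17 weeks was left out. With replicate 2 out, the 2 lower became 1 without C57BL/6 replicate 3 or MRL/lpr replicate 2 or 3. Ccl8 (chromosome 11, 82115185 to 82116799), an attractant of monocytes and T cells, was at 2.08, 75.8 and 1.23 FPKM in C57BL/6 and 56.4, 36.2 and 48.7 FPKM in MRL/lpr. It was the gene with the largest difference among those called only without replicate 2, at 4.18 ± 0.41 (adjusted p = 0.00011), against 2.55 ± 1.07 with it (adjusted p = 0.139). Cxcl13, which draws B cells into lymphoid aggregates, was at 1.57, 44.3 and 1.17 FPKM in C57BL/6 and 8.67, 5.73 and 12.96 FPKM in MRL/lpr, a log2 difference of 0.62 ± 0.91 (adjusted p = 0.708) and 2.04 ± 0.26 without replicate 2 (adjusted p = 0.000386). Cxcl12, made by stromal and tubular cells, lay between 87.9 and 104 FPKM in all 6 libraries and was not called. Of 22 tested cytokines and receptors 0 were called, and 9 were higher without replicate 2 (4 without C57BL/6 replicate 1 or 3), among them the interleukin 1 antagonist Il1rn, at 0.08, 3.15 and 0.09 FPKM in C57BL/6 and 1.16, 2.01 and 1.34 FPKM in MRL/lpr.

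Complement genes moved in both directions, against 7.7% higher and 7.44% lower of all genes, or 17.8% and 9.59% without replicate 2. Of 22 tested members 0 were higher and 3 lower, and 10 were higher and 3 lower without replicate 2, where the 10 became 6 without C57BL/6 replicate 1 or 3. C3, the central component, was at 10.6, 234 and 13.04 FPKM in C57BL/6 and 79.2, 44.03 and 56.7 FPKM in MRL/lpr, higher by 2.22 ± 0.24 without replicate 2 (adjusted p = 0.000213) and by 0.82 ± 0.89 with it (adjusted p = 0.598). C4b followed, higher by 2.34 ± 0.44 without replicate 2 (adjusted p = 0.00421), against 1.44 ± 0.67 with it (adjusted p = 0.181). Cfi (chromosome 3, 129836727 to 129875332), the protease that inactivates C3b and so restrains the cascade, was lower in MRL/lpr. It read 9.38, 28.5 and 8.12 FPKM in C57BL/6 and 3.54, 2.21 and 1.97 FPKM in MRL/lpr, a log2 difference of -2.00 ± 0.36 (adjusted p = 0.00407) and -1.47 ± 0.16 without replicate 2 (adjusted p = 0.000107). The groups did not overlap and the call on Cfi was kept with each library left out. Cfb, an alternative pathway factor made in the tubules, lay between 151 and 190 FPKM in all 6 libraries and was not called.

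Receptors for immunoglobulin gave 2 higher and 1 lower of 9 tested members, against 7.7% and 7.44% of all genes. Without replicate 2 they gave 5 higher and 1 lower, against 17.8% and 9.59% of all genes. The 5 became 2 without C57BL/6 replicate 1 and 1 without C57BL/6 replicate 3, and the 2 became 1 without MRL/lpr replicate 2 or 3. Fcgr2b, the inhibitory receptor for IgG, was the lower one, at 35.1, 59.8 and 33.97 FPKM in C57BL/6 and 23.2, 25.6 and 25.9 FPKM in MRL/lpr. Its log2 difference was -0.72 ± 0.17 (adjusted p = 0.0171, and 0.0632 without MRL/lpr replicate 1) and -0.46 ± 0.06 without replicate 2 (adjusted p = 0.000403). The activating partner Fcer1g was higher only without replicate 2, by 1.12 ± 0.25 (adjusted p = 0.0107), against 0.28 ± 0.56 with it (adjusted p = 0.796). The call was lost when C57BL/6 replicate 1 or 3 was also left out (adjusted p up to 0.0774). Fas signalling and apoptosis genes gave 0 higher and 1 lower of 22, against 7.7% and 7.44% of all genes. Without replicate 2 they gave 7 higher and 2 lower, against 17.8% and 9.59% of all genes. The 7 became 2 without C57BL/6 replicate 1 and 4 without C57BL/6 replicate 3 or MRL/lpr replicate 1, and the 2 lower became 1 without C57BL/6 replicate 1. With replicate 2 kept, the 1 lower gene became 0 when any 1 of the other 5 libraries at 17 weeks was left out. Casp8, the initiator caspase downstream of Fas, was at 14.8, 24.7 and 14.1 FPKM in C57BL/6 and 23.99, 22.8 and 20.3 FPKM in MRL/lpr. It was higher without replicate 2 by 0.60 ± 0.08 (adjusted p = 0.000407), with a log2 difference of 0.35 ± 0.17 with it (adjusted p = 0.194).

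Markers of tubular injury moved in both directions, against 7.7% higher and 7.44% lower of all genes, or 17.8% and 9.59% without replicate 2. Of 25 tested members 1 was higher and 4 lower, and 10 were higher and 4 lower without replicate 2, with medians of -0.15 and 0.53. The 4 lower genes became 2 without MRL/lpr replicate 1, and 2 without C57BL/6 replicates 2 and 3. The higher gene was Havcr1 (chromosome 11, 46739822 to 46779578), at 0.33, 37.4 and 0.39 FPKM in C57BL/6 and 161, 86.1 and 35.8 FPKM in MRL/lpr replicates 1 to 3. Its log2 difference was 4.28 ± 1.07 (adjusted p = 0.0231), lost without C57BL/6 replicate 1 or 3 or MRL/lpr replicate 1 or 2 (adjusted p up to 0.0847), and 5.88 ± 0.47 without replicate 2 (adjusted p = 3.1e-05), kept in 11 of 11 fits. Lcn2, the other injury protein in wide use, read 1.83, 180 and 3.04 FPKM in C57BL/6 and 10.8, 9.27 and 5.10 FPKM in MRL/lpr and was not called in either fit (adjusted p = 0.837 and 0.0565). Vcam1, an adhesion protein of injured tubules and activated endothelium, was at 5.62, 60.2 and 5.24 FPKM in C57BL/6 and 19.2, 14.4 and 14.3 FPKM in MRL/lpr, higher by 1.39 ± 0.19 without replicate 2 (adjusted p = 0.000649), against 0.30 ± 0.69 with it (adjusted p = 0.82). Spp1 and Clu, which are also induced by injury, were not called in either fit, with log2 differences without replicate 2 of 0.17 ± 0.12 and -0.37 ± 0.19. Among the lower members were the fibrinogen chains Fgb and Fgg, which are described with the hepatocyte genes.

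**Figure D3:**
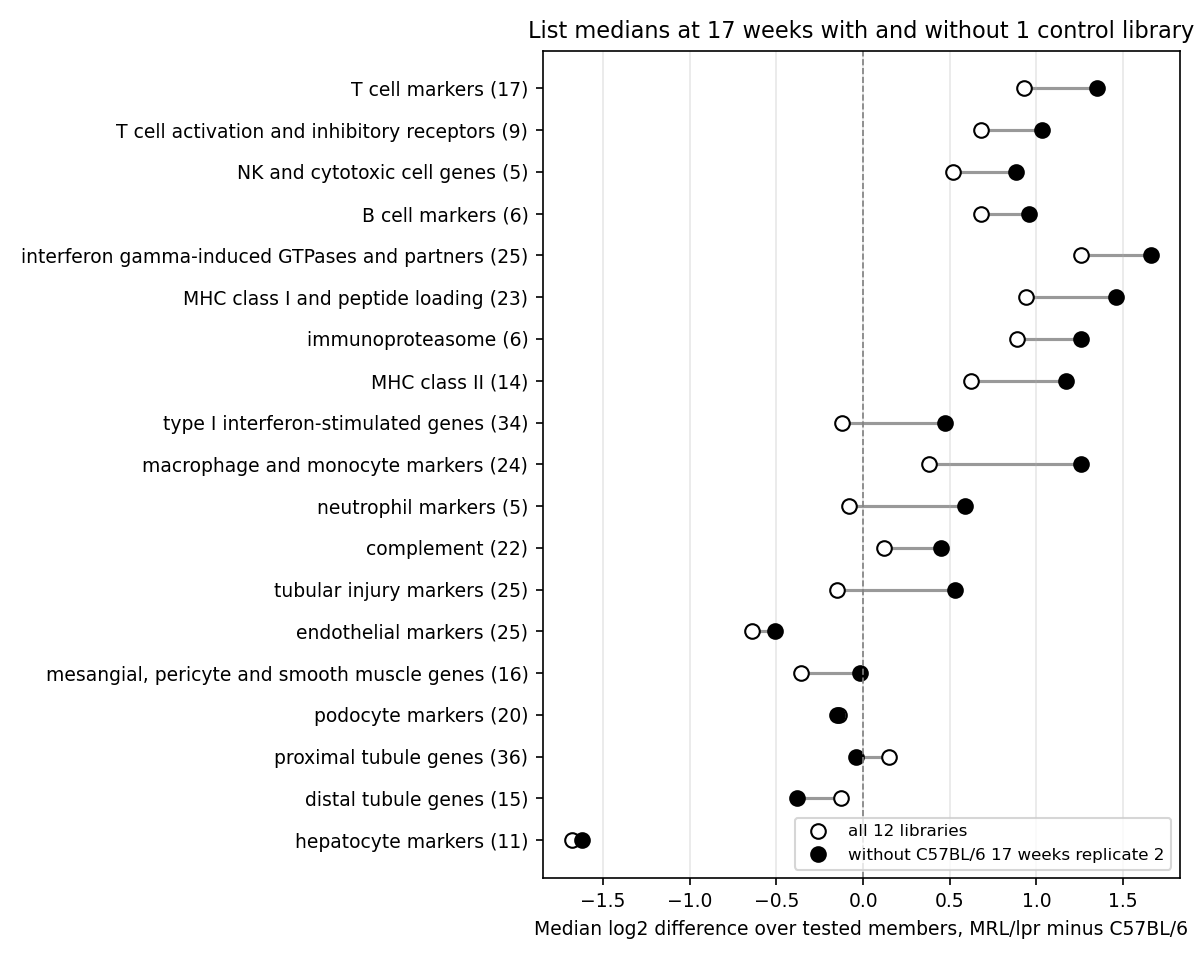
Median log2 difference (MRL/lpr minus C57BL/6, in log2(FPKM + 1)) over the tested members of 19 gene lists at 17 weeks, from all libraries (open circles) and without C57BL/6 replicate 2 (filled circles); the dashed line marks no difference. Leaving out this library raises the median of the macrophage list from 0.38 to 1.26 and of the tubular injury list from -0.15 to 0.53, while the endothelial list stays below 0 in both.

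Endothelial markers were the list with the most members lower in MRL/lpr with all libraries. Of 25 tested members 16 were lower and 0 higher, against 7.44% lower among all genes, and 14 were lower and 1 higher without replicate 2, against 9.59%. The MRL/lpr libraries lay below all 3 controls in 18 members, against 16% of all genes. The list's median was -0.64, or -0.51 without replicate 2. Between 9 and 16 members stayed lower with any other library left out, 9 without MRL/lpr replicate 1 and 10 without MRL/lpr replicate 3. With replicate 2 out the count was 7 without C57BL/6 replicate 1, 6 without C57BL/6 replicate 3, 8 without MRL/lpr replicate 1 and 9 without MRL/lpr replicate 3. The transcription factor Sox18 (chromosome 2, 181669837 to 181671640), which acts in vessel and lymphatic development, read 12.5, 18.1 and 12.3 FPKM in C57BL/6 and 5.26, 6.41 and 6.22 FPKM in MRL/lpr, a log2 difference of -1.12 ± 0.17 (adjusted p = 0.00129) and -0.95 ± 0.14 without replicate 2 (adjusted p = 0.000987). Kdr (VEGF receptor 2) was at 16.3, 14.2 and 17.6 FPKM in C57BL/6 and 9.68, 10.6 and 9.44 FPKM in MRL/lpr, a log2 difference of -0.64 ± 0.12 (adjusted p = 0.00398) and -0.72 ± 0.12 without replicate 2 (adjusted p = 0.00129). Robo4 (chromosome 9, 37401902 to 37414023), a guidance receptor that stabilises vessels, was at 11.9, 15.3 and 10.5 FPKM in C57BL/6 and 4.88, 4.55 and 4.17 FPKM in MRL/lpr, a difference of -1.28 ± 0.15 (adjusted p = 0.000318) and -1.14 ± 0.14 without replicate 2 (adjusted p = 0.000277). For these 3 genes the groups did not overlap and the calls were kept with each library left out. Pecam1 and Eng, 2 general markers of endothelium, were not called in either fit, with log2 differences of -0.62 ± 0.23 (adjusted p = 0.106) and -0.48 ± 0.15 (adjusted p = 0.0501), and -0.35 ± 0.19 (adjusted p = 0.2) and -0.39 ± 0.15 (adjusted p = 0.0865) without replicate 2.

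Esm1, a proteoglycan of peritubular and angiogenic endothelium, was lower without replicate 2 only. It was at 20.8, 6.29 and 20.04 FPKM in C57BL/6 and 7.69, 6.99 and 10.1 FPKM in MRL/lpr, so that here replicate 2 of C57BL/6 lay with the MRL/lpr libraries. The log2 difference was -1.22 ± 0.12 without replicate 2 (adjusted p = 6.54e-05) and -0.71 ± 0.34 with it (adjusted p = 0.199). Among genes of activated and lymphatic endothelium, Flt4 (VEGF receptor 3) was lower, at -0.75 ± 0.14 (adjusted p = 0.00585) and -0.64 ± 0.14 without replicate 2 (adjusted p = 0.00798), a call lost when C57BL/6 replicates 2 and 1 were both left out (adjusted p = 0.0698). Icam1 was higher without replicate 2 by 0.84 ± 0.15 (adjusted p = 0.00225), and 0.25 ± 0.39 with it (adjusted p = 0.722).

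Pericyte and vascular smooth muscle genes gave 3 lower and 0 higher of 16, against 7.44% and 7.7% of all genes. Without replicate 2 they gave 3 lower and 1 higher, against 9.59% and 17.8% of all genes. Abcc9 and Rgs5, both markers of pericytes, were lower. Abcc9, a subunit of a potassium channel, read 2.92, 2.83 and 3.31 FPKM in C57BL/6 and 1.13, 1.18 and 1.45 FPKM in MRL/lpr, a log2 difference of -0.84 ± 0.09 (adjusted p = 0.000158) and -0.87 ± 0.09 without replicate 2 (adjusted p = 0.000103). Rgs5 read 15.9, 30.9 and 18.8 FPKM in C57BL/6 and 9.76, 8.37 and 8.69 FPKM in MRL/lpr, a log2 difference of -1.15 ± 0.20 (adjusted p = 0.0033) and -0.88 ± 0.12 without replicate 2 (adjusted p = 0.000507). Both calls were kept with each library left out, while Pdgfrb, Acta2 and Tagln were not called in either fit.

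Few podocyte markers were called, against 7.7% higher and 7.44% lower of all genes, or 17.8% and 9.59% without replicate 2. Of 20 tested members 1 was higher, and 3 were higher and 2 lower without replicate 2. The 3 and 2 became 1 and 0 without C57BL/6 replicate 1, 2 and 0 without C57BL/6 replicate 3, 4 and 0 without MRL/lpr replicate 1, and 3 and 1 without MRL/lpr replicate 3. With all other libraries kept, 2 were lower without MRL/lpr replicate 2 and 1 without MRL/lpr replicate 3. Nphs1 (nephrin), the backbone of the slit diaphragm, lay between 10.5 and 14.1 FPKM in all 6 libraries with overlapping groups. The gene called with all libraries was Col4a4, a chain of the glomerular basement membrane, at 29.7, 27.2 and 30.7 FPKM in C57BL/6 and 38.8, 36.8 and 39.7 FPKM in MRL/lpr, a log2 difference of 0.39 ± 0.06 (adjusted p = 0.00132) and 0.34 ± 0.05 without replicate 2 (adjusted p = 0.0012). Its partner Col4a3 did not differ beyond its spread (0.01 ± 0.09). The fibroblast and matrix list is read against the same shares of all genes. Fibroblast and matrix genes gave 0 higher and 1 lower of 26, and 3 higher and 1 lower without replicate 2, where the 3 became 1 without C57BL/6 replicate 1 and 5 without MRL/lpr replicate 3. The lower gene was Col5a2 (chromosome 1, 45374331 to 45503282), a chain of type V collagen, at 7.62, 7.88 and 7.23 FPKM in C57BL/6 and 1.56, 2.00 and 0.95 FPKM in MRL/lpr. Its log2 difference of -1.80 ± 0.13 (adjusted p = 8.35e-06), or -1.77 ± 0.15 without replicate 2 (adjusted p = 1.55e-05), was kept with each library left out. Replicate 3 of MRL/lpr was the lowest of its group in 25 of 26 fibroblast and matrix genes.

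Along the tubule, 2 vitamin D enzymes were called in both fits, and genes of the distal tubule were called lower only without replicate 2. Cyp27b1 (chromosome 10, 127048246 to 127054884), which makes active vitamin D in the proximal tubule, was at 11.96, 9.96 and 8.49 FPKM in C57BL/6 and 1.63, 1.08 and 1.5 FPKM in MRL/lpr. It was lower, at -2.21 ± 0.16 (adjusted p = 8.45e-06), the same without replicate 2 (-2.21 ± 0.18), in every fit with 1 library left out. Cyp24a1, which degrades active vitamin D, was at 35.8, 45.8 and 29.4 FPKM in C57BL/6 and 65.3, 103 and 68.2 FPKM in MRL/lpr, higher by 1.06 ± 0.25 (adjusted p = 0.0188) and by 1.22 ± 0.28 without replicate 2 (adjusted p = 0.0102). The call on Cyp24a1 was lost without C57BL/6 replicate 1 or 3 or MRL/lpr replicate 2 (adjusted p up to 0.0724), and, with replicate 2 out, without C57BL/6 replicate 3 (adjusted p = 0.0956). Of all 36 tested proximal tubule genes 6 were higher and 1 lower, against 7.7% and 7.44% of all genes. Without replicate 2, 7 were higher and 3 lower, against 17.8% and 9.59% of all genes. The 6 became 2 without MRL/lpr replicate 2 and 3 without MRL/lpr replicate 3, and with replicate 2 out the 7 became 3 without C57BL/6 replicate 1 and 1 without C57BL/6 replicate 3. The 3 lower genes then became 7, beside 6 higher, without MRL/lpr replicate 2. Slc7a13, an amino acid transporter of the late proximal tubule, was at 0.76, 0.82 and 0.99 FPKM in C57BL/6 and 5.59, 4.17 and 3.85 FPKM in MRL/lpr, higher by 1.57 ± 0.19 (adjusted p = 0.000367) and by 1.55 ± 0.22 without replicate 2 (adjusted p = 0.000649).

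Distal tubule genes gave 1 higher and 0 lower of 15, and 1 higher and 7 lower without replicate 2, where the 7 became 3 without C57BL/6 replicate 1 and 2 without C57BL/6 replicate 3. Over all genes, 7.7% were higher and 7.44% lower, and 17.8% and 9.59% without replicate 2. In the distal tubule genes replicate 2 of C57BL/6 was the low library, above both partners in 1 of 15. Trpm6, the magnesium channel of the distal convoluted tubule, was at 7.45, 2.76 and 7.42 FPKM in C57BL/6 and 2.30, 2.46 and 3.68 FPKM in MRL/lpr, a log2 difference of -1.16 ± 0.16 without replicate 2 (adjusted p = 0.000417) and -0.77 ± 0.28 with it (adjusted p = 0.0902). Klhl3, which controls the breakdown of the WNK kinases, was at 20.04, 7.71 and 20.2 FPKM in C57BL/6 and 9.71, 10.1 and 11.9 FPKM in MRL/lpr, a log2 difference of -0.87 ± 0.10 without replicate 2 (adjusted p = 0.000141) and -0.45 ± 0.28 with it (adjusted p = 0.323). The exception was Pvalb, a calcium-binding protein of the early distal convoluted tubule, at 33, 4.06 and 36.6 FPKM in C57BL/6 and 106, 92.7 and 131 FPKM in MRL/lpr. Pvalb was higher by 2.56 ± 0.61 (adjusted p = 0.0184), a call lost without MRL/lpr replicate 1 or 3 (adjusted p up to 0.0584), and by 1.62 ± 0.21 without replicate 2 (adjusted p = 0.000649).

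In the thick limb 0 of 15 genes were higher and 1 lower with all libraries, against 7.7% and 7.44% of all genes. Without replicate 2, 1 was higher and 1 lower, against 17.8% and 9.59% of all genes. The lower one, Tmem72, was at 31.9, 27.1 and 36.2 FPKM in C57BL/6 and 20.7, 18.2 and 20.3 FPKM in MRL/lpr, a log2 difference of -0.65 ± 0.12 (adjusted p = 0.00426) and -0.76 ± 0.11 without replicate 2 (adjusted p = 0.000778). Principal cells of the collecting duct had 0 of 14 genes called, with 1 higher and 1 lower without replicate 2, and intercalated cells 2 higher and 1 lower of 18 in both fits. With replicate 2 out, the principal cell calls were both lost without C57BL/6 replicate 1 or 3, the higher one without MRL/lpr replicate 1 and the lower one without MRL/lpr replicate 2. The 2 and 1 of intercalated cells became 1 and 0 without C57BL/6 replicate 1 or 3 or MRL/lpr replicate 2, 2 and 0 without MRL/lpr replicate 1 and 0 and 1 without MRL/lpr replicate 3. With replicate 2 out they became 0 and 1 without C57BL/6 replicate 1 or 3 and 0 and 2 without MRL/lpr replicate 3. Rhcg, the ammonia channel, was at 121, 88.3 and 119 FPKM in C57BL/6 and 69.6, 71.1 and 81.1 FPKM in MRL/lpr, a log2 difference of -0.70 ± 0.12 without replicate 2 (adjusted p = 0.00219) and -0.55 ± 0.14 with it (adjusted p = 0.026). The call with all libraries was lost without C57BL/6 replicate 1 or 3 or MRL/lpr replicate 1 or 2 (adjusted p up to 0.0873). Renin was higher: Ren1 (chromosome 1, 133350674 to 133360320) read 109, 72.8 and 89.8 FPKM in C57BL/6 and 145, 187 and 160 FPKM in MRL/lpr, a log2 difference of 0.86 ± 0.15 (adjusted p = 0.00306) and 0.72 ± 0.13 without replicate 2 (adjusted p = 0.0028), kept with each library left out. Ren2, a near-identical copy of Ren1 that some mouse strains carry, has no value of its own among the genes used here, so reads of such a copy and of Ren1 cannot be told apart. Agt and Ace, which supply and convert angiotensin, were not called in either fit.

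Genes best known from the liver were lower in MRL/lpr, 8 of 11 tested hepatocyte markers with all libraries and 9 of 11 without replicate 2. Lower genes made up 7.44% and 9.59% of all genes in these fits. Apoa2, a lipoprotein component, was at 10.5, 7.33 and 17.9 FPKM in C57BL/6 and 0.12, 0.94 and 0.37 FPKM in MRL/lpr, a log2 difference of -3.08 ± 0.27 (adjusted p = 3.18e-05) and -3.36 ± 0.23 without replicate 2 (adjusted p = 6.64e-06). Fgg, a fibrinogen chain, was at 7.87, 35.2 and 8.75 FPKM in C57BL/6 and 1.28, 1.34 and 1.72 FPKM in MRL/lpr, a log2 difference of -2.58 ± 0.44 (adjusted p = 0.00291) and -1.93 ± 0.18 without replicate 2 (adjusted p = 3.29e-05). Alb was at 11.8, 7.39 and 60.4 FPKM in C57BL/6 and 2.77, 5.91 and 6.78 FPKM in MRL/lpr, and was called only without replicate 2, at -2.26 ± 0.54 (adjusted p = 0.0137), against -1.68 ± 0.58 with it (adjusted p = 0.0812). C57BL/6 replicate 3 was the highest library for Alb and Apoa2. Without it, 7 of 11 markers stayed lower, and 6 of 11 when replicate 2 was out as well, with Alb at an adjusted p of 0.0595. The other 5 markers of the list were below the filter and lay highest in C57BL/6 replicate 3. Ahsg read 0, 0.09 and 9.81 FPKM in C57BL/6 and 0 in the 3 MRL/lpr kidneys, Serpina3k 0, 0 and 11.71 FPKM and at most 0.08 FPKM, and Apoa1 1.33, 0.79 and 11.78 FPKM and at most 0.54 FPKM. The part of RNA from liver in these values was not tested.

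Metabolic lists gave calls in both directions, against 7.7% higher and 7.44% lower of all genes, or 17.8% and 9.59% without replicate 2. Fatty acid oxidation had 4 higher and 3 lower genes of 30 with all libraries, and 4 of each without replicate 2. Cholesterol synthesis had 3 higher and 2 lower of 23, and 3 of each without it, and glycolysis and gluconeogenesis 2 and 1 of 22, and 3 and 2 without it. The 2 higher glycolytic genes became 0 without MRL/lpr replicate 1. Fatty acid oxidation fell to 2 of each when C57BL/6 replicates 2 and 3 were both left out. Once replicate 2 was out, cholesterol synthesis fell to 1 and 1 without C57BL/6 replicate 1 and to 1 and 2 without C57BL/6 replicate 3, and glycolysis to 1 and 1 without C57BL/6 replicate 1 or 3 or MRL/lpr replicate 1, and to 3 and 1 without MRL/lpr replicate 2. Acaa1a, a peroxisomal thiolase, was at 87.0, 71.4 and 80.5 FPKM in C57BL/6 and 183, 270 and 214 FPKM in MRL/lpr, higher by 1.46 ± 0.15 (adjusted p = 0.000113) and by 1.38 ± 0.16 without replicate 2 (adjusted p = 0.000253). Pdk4, which blocks the entry of pyruvate into the citric acid cycle, was at 29.2, 60 and 31.4 FPKM in C57BL/6 and 16.4, 15.3 and 14.7 FPKM in MRL/lpr, a log2 difference of -1.25 ± 0.24 (adjusted p = 0.00606) and -0.93 ± 0.16 without replicate 2 (adjusted p = 0.00193). Sc5d, a late enzyme of cholesterol synthesis, was at 11.8, 11.2 and 12.5 FPKM in C57BL/6 and 5.37, 5.25 and 7.31 FPKM in MRL/lpr, a log2 difference of -0.89 ± 0.10 (adjusted p = 0.000249) and -0.93 ± 0.11 without replicate 2 (adjusted p = 0.000219). All 3 calls were kept with each library left out. Among glutathione genes, 4 of 24 were higher and 5 lower, and 6 higher and 5 lower without replicate 2. The 4 and 5 became 2 and 2 without C57BL/6 replicate 1 or MRL/lpr replicate 2, and 2 and 3 without C57BL/6 replicate 3. Leaving out C57BL/6 replicates 1 and 2 gave 2 higher and 1 lower, and leaving out replicates 2 and 3 gave 3 higher and 1 lower. Gstm2, a glutathione transferase, was at 54.0, 80.3 and 61.7 FPKM in C57BL/6 and 152, 155 and 161 FPKM in MRL/lpr, higher by 1.26 ± 0.13 (adjusted p = 0.000106) and by 1.42 ± 0.10 without replicate 2 (adjusted p = 3.69e-06).

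Cell cycle genes gave 2 higher and 1 lower of 26, and 18 higher and 1 lower without replicate 2, a count that fell to 3 when C57BL/6 replicate 1 was also left out, to 6 with C57BL/6 replicate 3 and to 10 with MRL/lpr replicate 1. Over all genes, 7.7% were higher and 7.44% lower, and 17.8% and 9.59% without replicate 2. The cell cycle counts with all libraries did not exceed these shares. Stmn1, a microtubule regulator, was at 35.5, 45 and 28.4 FPKM in C57BL/6 and 89.7, 83.4 and 77.0 FPKM in MRL/lpr, higher by 1.20 ± 0.14 (adjusted p = 0.000325) and by 1.36 ± 0.11 without replicate 2 (adjusted p = 1.68e-05). Tk1, a thymidine kinase of S phase, was at 7.60, 7.42 and 5.04 FPKM in C57BL/6 and 14.2, 20.1 and 18.5 FPKM in MRL/lpr, higher by 1.28 ± 0.18 (adjusted p = 0.00107) and by 1.35 ± 0.20 without replicate 2 (adjusted p = 0.00116). Pcna, the sliding clamp of DNA replication, did not differ beyond its spread in either fit. Pttg1 (securin) went the other way, at 60.4, 72.6 and 60.4 FPKM in C57BL/6 and 9.21, 5.71 and 7.01 FPKM in MRL/lpr, a log2 difference of -2.99 ± 0.13 (adjusted p = 1.83e-07) and -2.91 ± 0.14 without replicate 2 (adjusted p = 3.81e-07).

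The genes with the largest differences called in both fits included several outside the immune lists. Listed near-identical copies, predicted genes and ribosomal protein genes were left out of this ranking, and copies such as Eno1b and Rnaset2b, given after it, differed by more. Whether ranked genes outside that list have close copies that share reads was not tested. Angptl7 (chromosome 4, 148495181 to 148500462), a secreted protein related to the angiopoietins, was at 2.74, 1.69 and 2.56 FPKM in C57BL/6 and 259, 219 and 311 FPKM in MRL/lpr, higher by 6.31 ± 0.19 (adjusted p = 1.19e-08) and by 6.16 ± 0.20 without replicate 2 (adjusted p = 5.93e-08). Cyp2a5, a xenobiotic oxidase, was at 39.5, 28.3 and 40.7 FPKM in C57BL/6 and 281, 481 and 384 FPKM in MRL/lpr, higher by 3.35 ± 0.33 (adjusted p = 9.14e-05) and by 3.19 ± 0.38 without replicate 2 (adjusted p = 0.000325). Agmat, which hydrolyses agmatine, was at 3.44, 2.22 and 3.87 FPKM in C57BL/6 and 44.5, 28.7 and 42.2 FPKM in MRL/lpr, higher by 3.24 ± 0.23 (adjusted p = 7.74e-06) and by 3.06 ± 0.24 without replicate 2 (adjusted p = 2.31e-05). The histone gene H2bc1 and the myosin-binding protein gene Mybphl had values of 0 in the 3 controls and stood between 15.98 and 28.4 FPKM and between 4.23 and 9.32 FPKM in MRL/lpr, so no fold is given. Ifi44l and Pianp completed this side, at 3.14 ± 0.23 and 3.12 ± 0.19 on the log2 scale, or 3.01 ± 0.24 and 3.36 ± 0.14 without replicate 2. Ifi44l, by its name an interferon-induced gene, is not a member of the type I interferon-stimulated list, so that list's counts leave it out.

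On the lower side, Ttr, the carrier of thyroxine and retinol, was at 50.6, 66.9 and 63.1 FPKM in C57BL/6 and 1.16, 1.5 and 1.49 FPKM in MRL/lpr, a log2 difference of -4.68 ± 0.11 (adjusted p = 1.06e-09) and -4.60 ± 0.12 without replicate 2 (adjusted p = 1.78e-09). Igf2, a growth factor, was at 83.3, 69.5 and 90.9 FPKM in C57BL/6 and 4.96, 2.69 and 3.66 FPKM in MRL/lpr, a log2 difference of -4.13 ± 0.35 (adjusted p = 2.7e-05) and -4.23 ± 0.40 without replicate 2 (adjusted p = 9.07e-05). Atp4a, the catalytic subunit of the gastric type proton pump, was at 33.7, 27.4 and 34.6 FPKM in C57BL/6 and 3.39, 2.94 and 3.63 FPKM in MRL/lpr, a log2 difference of -2.92 ± 0.13 (adjusted p = 1.33e-07) and -3.03 ± 0.12 without replicate 2 (adjusted p = 6.59e-08). Cpn1, which inactivates complement anaphylatoxins, was at 119, 92.4 and 112 FPKM in C57BL/6 and 13.9, 17.4 and 16.7 FPKM in MRL/lpr, a log2 difference of -2.68 ± 0.12 (adjusted p = 1.33e-07) and -2.79 ± 0.11 without replicate 2 (adjusted p = 4.97e-08). Cyp2c23, an epoxygenase of arachidonic acid, was lower, at -2.56 ± 0.25 (-2.84 ± 0.21 without replicate 2), and the serine protease Tmprss6, which restrains hepcidin, at -2.21 ± 0.24 (-2.47 ± 0.21 without replicate 2). Gvin1, an interferon-inducible GTPase, had values of 0 in the 3 MRL/lpr kidneys, and stood at 3.87, 6.85 and 1.99 FPKM in C57BL/6. The ranked genes of this and the preceding paragraph were called in both fits, as the ranking required, and kept the call with each other library left out.

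**Figure D4:**
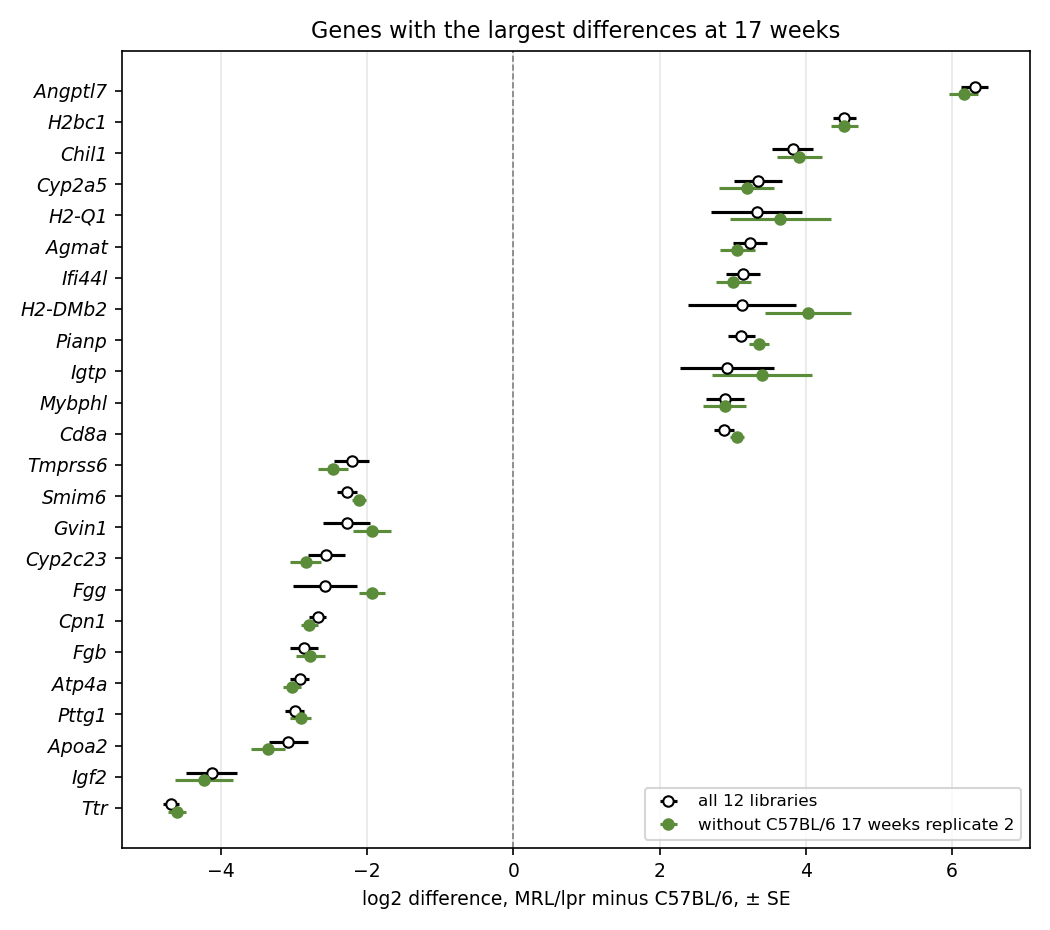
Log2 difference at 17 weeks (MRL/lpr minus C57BL/6, in log2(FPKM + 1), bars ± SE) of 24 genes called in both fits, 12 on either side, chosen by the size of the difference after listed near-identical copies, predicted genes and ribosomal protein genes were left out, from all libraries (open circles) and without C57BL/6 replicate 2 (filled circles). With all libraries the differences run from 6.31 for Angptl7 to -4.68 for Ttr. The choice also asked for the same direction in both fits and for groups that do not overlap. That both estimates lie on the same side of 0 therefore follows from the choice.

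Some calls fell on genes with near-identical copies, where reads can be assigned to either copy. Eno1 was at 485 ± 26.6 FPKM in C57BL/6 and 229 ± 8.29 FPKM in MRL/lpr (SD, n = 3), and its retrocopy Eno1b at 1.0 ± 0.564 and 312 ± 8.63 FPKM. Their sum was 486 ± 26.1 FPKM in C57BL/6 and 542 ± 5.53 FPKM in MRL/lpr, a log2 difference of 0.16. Rnaset2b was at 78.4, 106 and 87.3 FPKM in C57BL/6 and had values of 0 in the 3 MRL/lpr kidneys, and the sum of Rnaset2a and Rnaset2b differed by 0.36 on the log2 scale. For the alpha globin genes Hba-a1 and Hba-a2 the sums overlapped between the groups. In 2 interferon gamma-induced pairs the groups did not overlap in the sums either, which were not tested. Tgtp1 with Tgtp2 summed to 11.6, 47.9 and 10.4 FPKM in C57BL/6 and 128, 59.2 and 165 FPKM in MRL/lpr. Gbp6 with Gbp10 summed to 4.67, 12.2 and 3.52 FPKM in C57BL/6 and 59.0, 27.9 and 67.9 FPKM in MRL/lpr. Changes in Eno1, Gsta1, Gsta2, Ren1, Serpina1 and Hba single copies are therefore uncertain as changes of a gene.

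Whether the strain difference at 17 weeks was itself different from that at 8 weeks was tested with the interaction of strain and age. With all 12 libraries 7 of 12736 genes passed (0.055%), and 1312 had an unadjusted p under 0.05. Without replicate 2, 327 passed (2.57%), of which 227 had a larger difference toward MRL/lpr at 17 weeks (1.78%). Chil1 (chromosome 1, 134182156 to 134190031), a chitinase-like protein of inflamed tissue, was at 0.11, 0.32 and 0.11 FPKM in C57BL/6 and 20.7, 9.23 and 19.8 FPKM in MRL/lpr at 17 weeks, while its means at 8 weeks were 0.0933 and 0.597 FPKM. Its interaction was 3.31 (adjusted p = 0.0139), kept in 6 of 12 fits that leave out 1 library (adjusted p up to 0.0723). Cyp27b1 had means of 1.5 FPKM in C57BL/6 and 2.09 FPKM in MRL/lpr at 8 weeks, below the 8.49 FPKM or more of each C57BL/6 library at 17 weeks, with an interaction of -2.53 (adjusted p = 0.00526), kept in 12 of 12 such fits. Pla2g2d, a phospholipase of lymphoid tissue, was at 0.44, 1.47 and 0.35 FPKM in C57BL/6 and 6.58, 3.24 and 6.12 FPKM in MRL/lpr at 17 weeks, with means of 0.17 and 0.27 FPKM at 8 weeks. The interaction of Pla2g2d passed without replicate 2 (2.02, adjusted p = 0.00998) and not with it (1.74, adjusted p = 0.133), and was lost when C57BL/6 replicate 1 or 3 at 17 weeks was also left out (adjusted p up to 0.0642).

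Among the listed genes, Trem2 (1.60, adjusted p = 0.00715), Slamf6 (1.11, adjusted p = 0.0168), Ccl8 (3.20, adjusted p = 0.0255), Casp8 (0.56, adjusted p = 0.0295) and Sox18 (-1.17, adjusted p = 0.019) passed the interaction test without replicate 2. These calls were lost when C57BL/6 replicate 1 at 17 weeks was also left out, and all but that on Trem2 without C57BL/6 replicate 3 (adjusted p up to 0.0589 for Trem2, 0.0839 for Slamf6, 0.129 for Ccl8, 0.127 for Casp8 and 0.0937 for Sox18). Over 11 such fits, Trem2 kept the call in 10, Slamf6 and Sox18 in 9 each, Ccl8 in 5 and Casp8 in 4. For Sox18 the means at 8 weeks were 9.42 FPKM in C57BL/6 and 11 FPKM in MRL/lpr, the reverse of the order at 17 weeks. For Cd8a the interaction was -0.23 (adjusted p = 0.787), with 0.743 and 14.1 FPKM at 8 weeks, in C57BL/6 and MRL/lpr. The interferon gamma-induced genes Gbp2, Igtp and Cxcl9 did not pass in either fit. Their means at 8 weeks were 6.51 and 22.7 FPKM for Gbp2, 10.7 and 50.7 FPKM for Igtp, and 1.12 and 3.38 FPKM for Cxcl9, in C57BL/6 and MRL/lpr. The number of genes past the interaction test without replicate 2 ranged from 9 to 733 when another library was left out, with the lowest without C57BL/6 replicate 1 at 17 weeks.

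**Figure D5:**
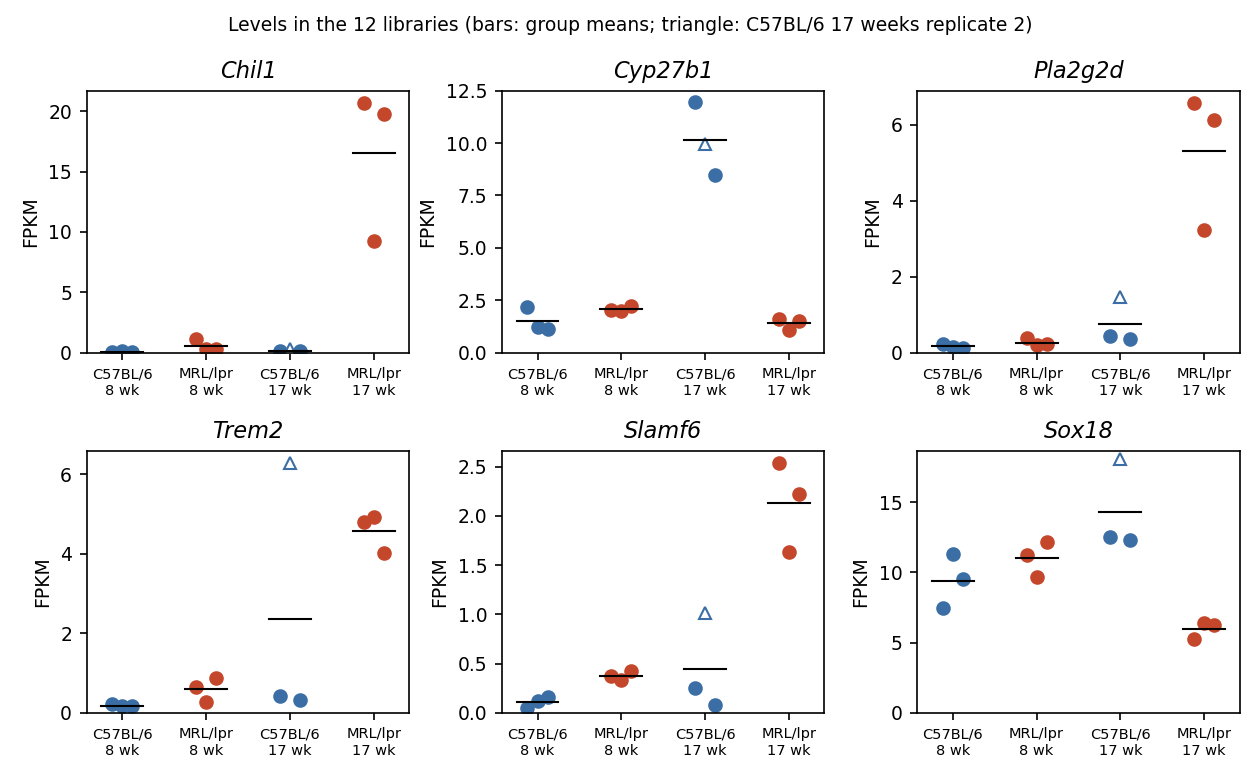
FPKM of 6 genes in all 12 kidney libraries, by strain and age; points are libraries, bars are group means, and the open triangle is C57BL/6 replicate 2 at 17 weeks. Chil1, Pla2g2d and Slamf6 are highest in MRL/lpr at 17 weeks, Cyp27b1 is highest in C57BL/6 at 17 weeks, Trem2 is high in MRL/lpr and in that 1 control library at 17 weeks, and Sox18 is lowest in MRL/lpr at 17 weeks.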

How the data were processed

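RNA of mouse kidney was sequenced in 12 libraries, 3 for each of 4 groups of strain and age. The deposited values are FPKM per mRNA; per the submitters' processing notes the tools were Bowtie2, RSEM 1.3.1 and DESeq2 1.34.0, and the genome build was GRCm38.p6. Raw counts were not used here, so the depth behind each value is unknown. The sum of FPKM over genes was 510180 to 532734 in the 6 libraries at 17 weeks, and 12261 to 13011 genes reached 1 FPKM. The reference is that of C57BL/6J, and the part of sequence differences of MRL in the values was not tested.

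The FPKM of 72806 mRNAs (31263 curated and 41543 predicted RefSeq records) were summed to 19034 genes by gene ID, and 12736 genes with at least 1 FPKM in at least 3 of the 6 libraries at 17 weeks were tested on log2(FPKM + 1). This scale understates the differences of low genes. Limma 3.58.1 in R 4.3.3 (1 mean per group, trended and robust moderation) was fitted to all 12 libraries, which share 1 estimate of the spread, and to 11 without C57BL/6 replicate 2 at 17 weeks. P-values were adjusted by Benjamini-Hochberg over all tested genes, with a threshold of 0.05. Differences are MRL/lpr minus C57BL/6 with the standard error of the fit.

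The members and lists were chosen with earlier results of these data known. Genes were named by a rule: the largest differences in both fits or only without replicate 2, the largest interactions, up to 5 called and 3 uncalled members of each list, Fas, Nnt and the near-identical copies. Ifng, Lcn2, Nphs1, Ahsg, Serpina3k, Apoa1 and the Y-linked genes fall outside it and were chosen after their values were seen. Alternatives changed the pseudocount, the filter, the scaling, the libraries in the fit, the records summed, the moderation, library weights and the replicate number as a block. Promoters are from RefSeq, without those on chr18.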

Additional observations from a re-analysis of the deposited data

Results flagged for a closer look

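For 2 named genes the strain difference itself differed between ages in the fit to all 12 libraries. For Chil1, a chitinase-like protein of inflamed tissue, the interaction was 3.31 on the log2 scale (adjusted p = 0.0139), and all 3 MRL/lpr libraries at 17 weeks lay above every other library. For Cyp27b1, which makes active vitamin D, it was -2.53 (adjusted p = 0.00526), and the 3 C57BL/6 libraries at 17 weeks lay above every other library. The call on Chil1 was kept in 6 of 12 fits that leave out 1 library. It was lost without any 1 of the 3 C57BL/6 libraries at 8 weeks, without C57BL/6 replicate 1 or 3 at 17 weeks and without MRL/lpr replicate 2 at 8 weeks (adjusted p up to 0.0723), and also with a pseudocount of 0.1 and with the replicate number as a block (adjusted p up to 0.0786). The call on Cyp27b1 was kept in 12 of 12 fits that leave out 1 library (adjusted p up to 0.0337) and under 10 of 10 other alternatives (adjusted p up to 0.0135).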

How the results depend on the processing

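Of 70 named genes called with all libraries, 52 kept the call under every alternative in which they were tested, and of 93 called without C57BL/6 replicate 2 at 17 weeks, 72 did; 0 changed direction. The 981 higher and 948 lower genes became 441 and 397 with only the libraries at 17 weeks, 562 and 512 with curated records alone (11142 genes tested), and 3080 and 1996 with a weight per library. Leaving out 1 library gave 655 to 2268 higher and 596 to 1221 lower genes. Without C57BL/6 replicate 2 the 2268 higher and 1221 lower genes became 1261 and 723 with curated records, and ranged from 1143 to 2421 and from 596 to 1267 with a further library left out. The 7 genes past the interaction test became 4 with a pseudocount of 0.1, 15 with 0.5, 11 with no filter (18246 genes tested), 12 with TPM scaling and 876 with library weights, and ranged from 1 to 327 with 1 library left out. Without C57BL/6 replicate 2 the 327 became 209 with no filter, 36 with curated records and 900 with library weights, and ranged from 9 to 733. The causes were not tested.

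The replicate numbers did not pair the libraries: 3 of 18 same-numbered pairs correlated above 0.1 in their deviations from the group means, 0 of 3 at 17 weeks (-0.167 to 0.0636). With the replicate number as a block, 808 genes were higher and 742 lower, and 2116 and 1082 without C57BL/6 replicate 2, while the interaction passed in 1 and 190 genes. The number of libraries limits these comparisons, and without C57BL/6 replicate 2 the control group at 17 weeks holds 2.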
